A study of Drosophila melanogaster and Drosophila simulans and Drosophila yakuba with 27 samples.

Results

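Obp44a (FBgn0033268) had the highest normalised signal of all genes with a value in the larval brain of 8 of 9 Drosophila lines. Its signal was much lower in the eye-antennal and wing imaginal discs of the same lines. In both D. melanogaster strains, first place rested on the gene length behind the value, as described below. Obp44a is 1 of 15439 gene rows in the deposited expression table, of which 11862 to 12863 had a value in a species other than D. melanogaster. It was set against the 44 other rows whose symbol begins with Obp, so that 45 rows carry a name of this type. The gene was chosen with its values in these libraries known, so its levels are described here without a test.

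Odorant-binding proteins are small, soluble, secreted proteins with a pocket held by disulphide bonds, in which they carry small hydrophobic molecules. The family is best known from the fluid around olfactory and taste neurons of adult insects, but several members are made outside the sense organs. In D. melanogaster, Obp44a is known as an abundant product of central nervous system glia, among them astrocyte-like glia, and its protein is known to bind fatty acids.

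The study, which addresses the evolution of gene regulation in the developing eye, sequenced RNA of 3 tissues dissected from wandering third-instar larvae kept at 25 °C: the eye-antennal disc, the wing disc and the brain. With 1 library for each tissue of each of 9 lines, belonging to 8 species, there were 27 libraries. D. melanogaster was represented by the inbred strain RAL-208 (genotype DGRP-208) and by Canton S, D. simulans by the w[501] genotype and D. ananassae by a stock whose genotype is given as In(3R)A. The lines of D. virilis, D. mojavensis, D. willistoni, D. pseudoobscura and D. yakuba are labelled wild-type. The labels do not state how many larvae were pooled for a library or their sex. Replication of a tissue came from the 9 lines, each with a single library. The libraries held 3642547 to 20473119 reads counted in genes. Of the tissue labels, that of the eye-antennal disc was checked with 8 eye disc genes, whose summed signal was 468 to 827 there, 155 to 280 in the brain and 23.8 to 75.8 in the wing disc, without overlap. Genes of the ring gland, an endocrine organ attached to the brain, summed to 112 to 490 in the brain, 96.3 to 574 in the eye-antennal disc and 5.23 to 167 in the wing disc (4 genes), and 5 hemocyte genes summed to 24.3 to 145.9, 23.6 to 140.6 and 19.7 to 55.5.

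Levels are given as the deposited normalised signal, a read count divided by a gene constant and a library factor. In the brain, the Obp44a signal was 23059 in D. virilis, 17931 in D. mojavensis, 16107 in D. willistoni, 11706 in Canton S and 11145 in D. simulans. It was 10027 in D. yakuba, 9221 in D. ananassae, 6394 in RAL-208 and 4899 in D. pseudoobscura. The mean was 12277 ± 5787 (SD, n = 9 lines), and the highest line exceeded the lowest 4.71-fold. The 3 highest brains were those of D. virilis, D. mojavensis and D. willistoni, and the lowest was that of D. pseudoobscura.

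In the eye-antennal disc, from which the compound eye and antenna form, the Obp44a signal was 2008 in D. mojavensis, 1780 in D. willistoni, 1744 in RAL-208, 1365 in D. simulans, 1341 in Canton S. It was 670 in D. virilis, 628 in D. yakuba, 598 for D. ananassae and 451 for D. pseudoobscura. The mean was 1176 ± 598 (SD, n = 9). The spread among lines was about as wide as in the brain, 4.46-fold from lowest to highest. D. pseudoobscura was again lowest, whereas D. virilis, highest in the brain, was the fourth lowest here.

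In the wing disc, the Obp44a signal was 741 in D. virilis, 592 in D. simulans, 109.8 in Canton S, 103.7 in D. ananassae, 103.0 in D. willistoni, 85.3 in D. yakuba, 46.9 in D. mojavensis, 39.7 in RAL-208 and 24.7 in D. pseudoobscura. The mean was 205 ± 266 (SD, n = 9) and the median 103.0. D. simulans and D. virilis stood well above the other 7 lines, and the lines differed up to 30.0-fold. In an alternative that leaves out RAL-208, Canton S, D. simulans, D. mojavensis and D. virilis, 5 lines picked from earlier results of these data for neuronal transcripts in a disc library, the wing disc mean was 79.2. By the neuronal percentages given further on, D. mojavensis, D. simulans, RAL-208 and Canton S had the 4 highest eye-antennal discs, and D. simulans and D. virilis the 2 highest wing discs. The wing discs of RAL-208, Canton S and D. mojavensis were below that of D. yakuba, a line kept in this alternative.

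All 9 brain values lay above all 18 disc values. Among the 7677 tested genes, 7.22% had all 9 brain values above all 9 eye-antennal disc values, and 10.8% had all 9 above the wing disc values. The eye-antennal and wing disc ranges of Obp44a overlapped, because the wing discs of D. simulans and D. virilis exceeded the eye-antennal discs of D. pseudoobscura and, for D. virilis, also those of D. yakuba, D. ananassae and D. virilis itself. In bulk tissue, fewer cells of a type and less RNA per cell cannot be told apart.

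**Figure D1:**
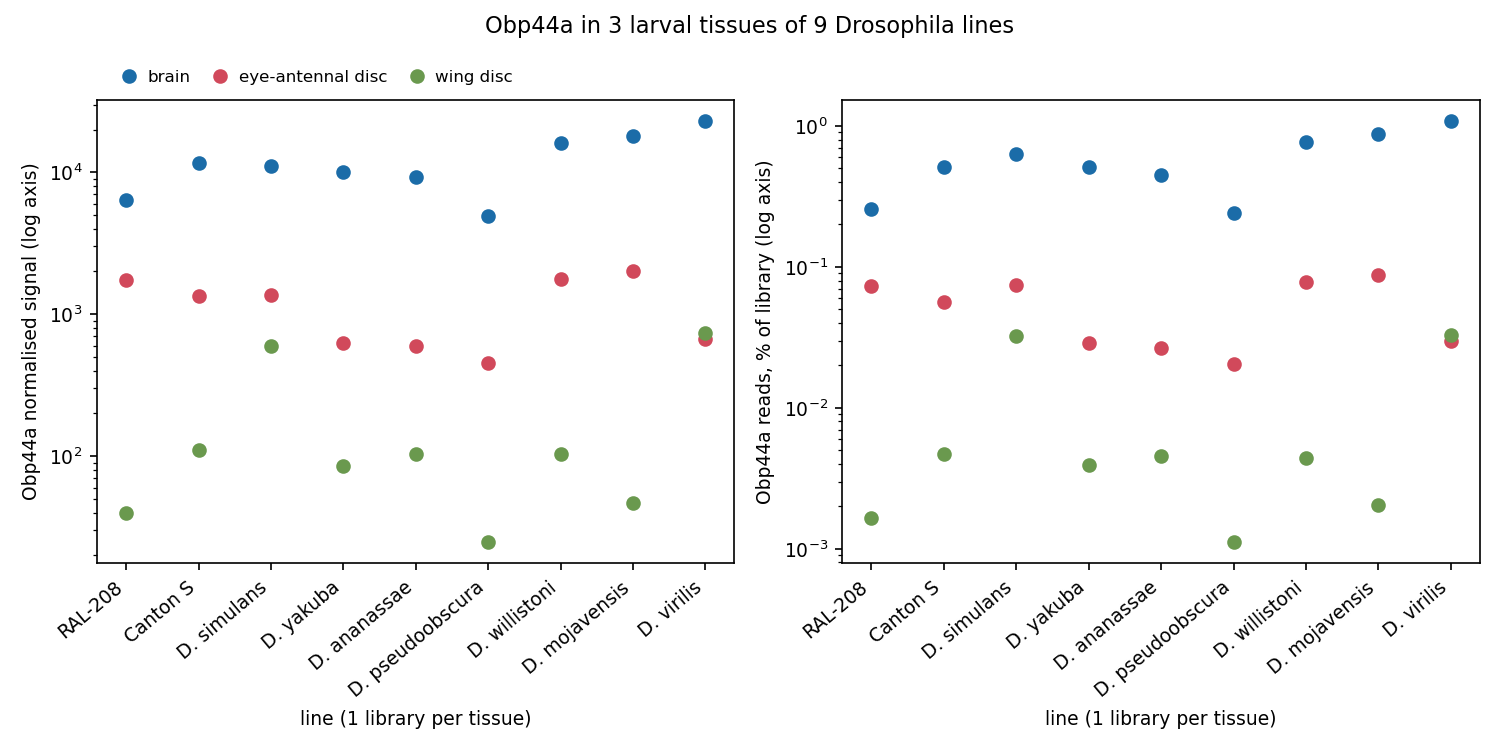
Obp44a in each of the 27 libraries, as the normalised signal (left) and as a percentage of the reads counted in genes (right), both on log axes; each point is 1 library and the lines are on the horizontal axis. The 9 brains lie between 4899 and 23059, above all disc libraries, and the wing discs of D. simulans (592) and D. virilis (741) lie above the other wing discs.

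Within lines, the brain exceeded the eye-antennal disc 3.67-fold in RAL-208 to 34.4-fold in D. virilis, with a median of 9.05-fold. The brain exceeded the wing disc 18.8-fold in D. simulans to 382-fold in D. mojavensis, with a median of 117.6-fold. The eye-antennal disc exceeded the wing disc in 8 of 9 lines, with a median of 12.2-fold and up to 43.9-fold in RAL-208, and the exception was D. virilis at 0.904. The brain excess was thus seen in 9 of 9 lines against either disc, and its size varied widely among lines.

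On the log2(signal + 1) scale the mean difference of Obp44a was 3.43 ± 0.88 (SD, n = 9 lines) for brain minus eye-antennal disc, 6.66 ± 1.33 for brain minus wing disc and 3.23 ± 1.85 for eye-antennal disc minus wing disc. The medians of all 7677 genes for these differences were -0.00, 0.02 and 0.04, and their 95th percentiles were 2.19, 3.38 and 1.43. Ordered by these differences among the 7677 genes, Obp44a held place 1 for brain minus wing disc, place 39 for brain minus eye-antennal disc and place 36 for eye-antennal disc minus wing disc. The added 1 caps the difference that a gene with a low level can reach, so these places favour abundant genes. Places with a smaller added value were not computed.

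**Figure D2:**
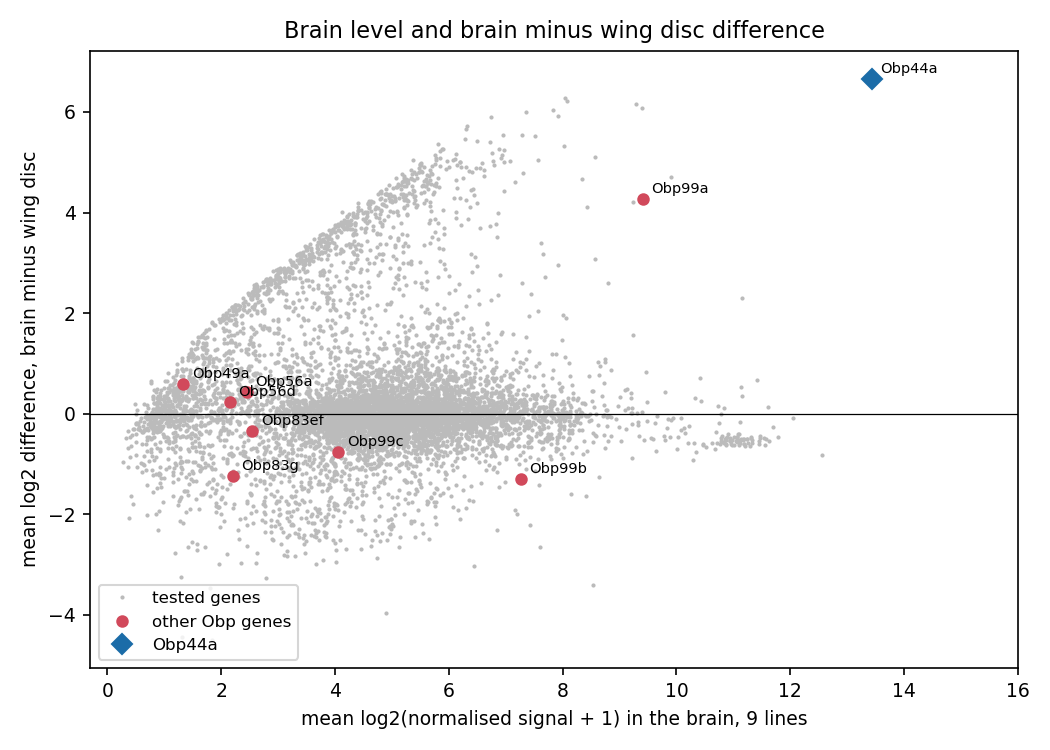
Each point is 1 of the 7677 tested genes, with its mean log2(normalised signal + 1) in 9 brains on the horizontal axis and its mean brain minus wing disc difference on the same scale on the vertical axis. Obp44a (diamond) has the largest difference, 6.66, and Obp99a lies next among the Obp genes at 4.26, while the other 7 Obp genes (circles) lie between -1.29 and 0.59.

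The deposited count tables carry each species' own gene identifiers, and in every line 1 count row matched the Obp44a signal over the 3 tissues. In the brain, Obp44a took 0.257% of the counted reads in RAL-208 (52625 reads, exact 95% binomial interval 0.255 to 0.259%) and 1.09% in D. virilis (105466 reads, 1.08 to 1.09%). The lowest share of a brain library was 0.240% in D. pseudoobscura (22262 reads). Shares ranged from 0.0205 to 0.0882% in the eye-antennal disc and from 0.00111 to 0.0329% in the wing disc. The smallest numbers of reads were 68 in the RAL-208 wing disc (0.00165%, interval 0.00128 to 0.00210%) and 88 in that of D. mojavensis (0.00203%, interval 0.00163 to 0.00250%), so counting error is proportionally largest there. Such intervals cover counting error only, since reads without molecular identifiers are not independent molecules.

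By signal, Obp44a ranked first of all genes with a value in 8 of 9 brain libraries. In D. virilis it stood 2.84-fold above the next gene, Act5C, a cytoplasmic actin, and in RAL-208 it stood 1.05-fold above Ef1alpha48D, a translation elongation factor. In D. pseudoobscura it ranked 4th, at 0.961 times the level of Ef1alpha48D and 0.941 times that of the ribosomal protein genes RpS28a and RpS28b, whose values there were identical. By read count, which favours long messages, its place in the brain ran from 1 in D. virilis to 21 in D. pseudoobscura. By signal, it ranked 79 to 197 in the eye-antennal discs and 149 to 4468 in the wing discs.

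A ranking across genes rests on the length behind each value. In D. melanogaster the gene constant followed exonic length: over 6861 genes with more than 20 reads, the constants and the exonic lengths of the present annotation correlated at Pearson r = 0.979 on the log scale, across genes, and 83.9% of genes lay within 10% of proportionality. The constant of Obp44a corresponded to 644 bases, close to the shorter of its annotated transcripts (648 bases) and not to the 1076 bases that both transcripts now cover. With the present length, every D. melanogaster Obp44a value would be 1.67-fold lower, which is more than its lead over the next gene in the brains of RAL-208 (1.05-fold) and Canton S (1.42-fold), and the ratios between tissues would be unchanged. The lengths behind the values of the other species were not checked.

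Pabp2, which encodes a nuclear poly(A)-binding protein, overlaps Obp44a on the opposite strand, sharing 5 exonic bases with the shorter Obp44a transcript and 205 with the longer one. Use of strand in the counting was not given in the sources used here, so reads of the shared bases cannot be told apart. The Pabp2 signal had medians of 250 in the brain, 262 in the eye-antennal disc and 292 in the wing disc, so it did not follow the order of the Obp44a levels. Lpin, the neighbouring gene for the phosphatidate phosphatase lipin, had medians of 85.1, 24.9 and 17.1, and kermit, on the far side of Lpin, had medians of 11.9, 34.7 and 32.2.

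In the brain, the Obp44a levels rose from D. pseudoobscura to D. virilis in the order given above, read from its end. The only estimate of the difference between libraries of 1 species is that between the D. melanogaster strains, and it includes their genetic difference. Canton S exceeded RAL-208 1.83-fold in the brain and 2.77-fold in the wing disc, and RAL-208 exceeded Canton S 1.30-fold in the eye-antennal disc. All 8 steps between neighbouring lines in the brain order were smaller than the strain difference. In each tissue, steps that lie between the strains in the order cannot exceed that difference, so these were fixed in advance. The whole brain range was 4.71-fold.

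In the eye-antennal disc, 6 of 8 steps were below the strain difference there. The exceptions were a 1.33-fold step from D. pseudoobscura to D. ananassae and a 2.001-fold step that separated D. virilis, D. yakuba, D. ananassae and D. pseudoobscura below from the other 5 lines above. In the wing disc 7 of 8 steps were below the strain difference, and the exception was the 5.39-fold step between Canton S and D. simulans. Levels between species also carry differences in annotated ortholog length. By share of reads, which uses no length, the 3 highest lines were the same in the brain and in the wing disc, and 7 of 9 lines kept their rank in the brain and 9 of 9 in the wing disc. In the eye-antennal disc 7 of 9 lines kept their rank, and D. simulans took the place of RAL-208 among the 3 highest.

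Beside these levels, transcripts of neurons differed between libraries of a tissue. A list of 11 neuronal genes, such as the vesicular glutamate transporter VGlut, the GABA-synthesizing enzyme Gad1, the complexin cpx and the synapsin Syn, was higher in the brain than in either disc for all 11 members by limma at an adjusted p under 0.05, beside 26.8% (eye-antennal disc) and 32.0% (wing disc) of all tested genes. Its median log2 differences were 2.31 and 4.61. Expressed per line as a percentage of the brain level, the median of the list in the eye-antennal disc ran from 2.82% in D. virilis to 34.0% in D. mojavensis. Obp44a there ran from 2.91% in D. virilis to 27.3% in RAL-208. The eye-antennal disc of this stage contains differentiating photoreceptor neurons and glia that move in from the brain along the optic stalk.

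In the wing disc, the median of the neuronal list was 7.06% of the brain level in D. simulans and 4.50% in D. virilis, and 0.367 to 2.62% in the other 7 lines. Obp44a was 5.32% of its brain level in D. simulans and 3.21% in D. virilis, and 0.262 to 1.12% in the other 7. The same 2 wing discs were thus highest for both. The Obp44a percentage was below that of the neuronal list in 9 of 9 wing discs and 7 of 9 eye-antennal discs, the exceptions being RAL-208 (27.3 against 23.4%) and D. virilis (2.91 against 2.82%). The summed signal of the neuronal list ran from 705 to 1441 in the brain, 154 to 488 in the eye-antennal disc and 89.4 to 229 in the wing disc, where up to 5 of the 11 genes were at 0. The part of these transcripts in the disc levels of Obp44a was not tested. In the 4 lines outside the 5 named above, the mean log2 differences of Obp44a were 3.64 for brain minus eye-antennal disc, 7.04 for brain minus wing disc and 3.40 for eye-antennal minus wing disc.

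**Figure D3:**
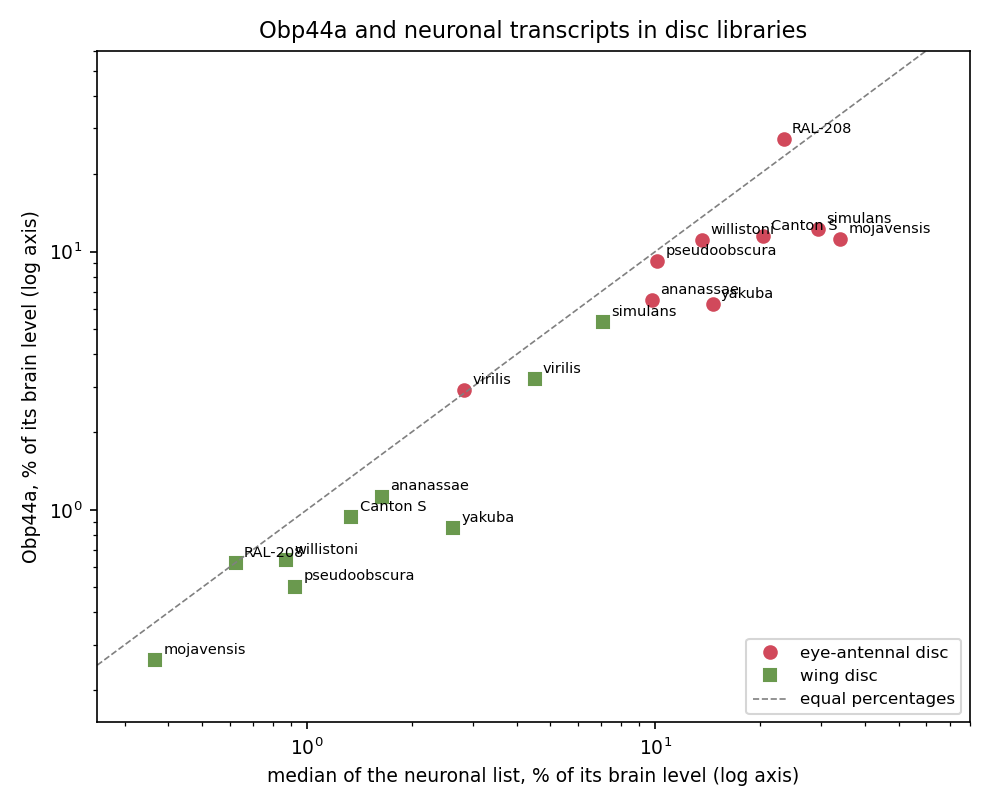
Each point is 1 disc library, with the median level of 11 neuronal genes (those with a brain signal of at least 5 in that line) as a percentage of the brain level of the same line on the horizontal axis and Obp44a as a percentage of its brain level on the vertical axis, both on log axes; species names are given without the genus. Points below the dashed line have a lower percentage for Obp44a than for the neuronal genes, which holds for all 9 wing discs and 7 of 9 eye-antennal discs.

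Glial genes, the class to which Obp44a expression is assigned in D. melanogaster, were examined in the same way. All 4 tested members of the astrocyte list were higher in the brain than in the eye-antennal disc and than in the wing disc by limma at an adjusted p under 0.05, beside 26.8% and 32.0% of all tested genes. Their median log2 differences were 2.27 and 2.96. The glutamate transporter Eaat1, which clears transmitter from synapses, had a mean signal of 83.2 ± 30.3 in the brain, 8.77 ± 6.29 in the eye-antennal disc and 2.44 ± 2.91 in the wing disc (SD, n = 9). The other tested members were the β-alanyl amine synthase gene e, the glutamine synthetase Gs2 and the lipid phosphate phosphatase wun2. Of the 7 genes listed, alrm, Gat and naz were not tested. The astrocyte gene alrm had a value in only 5 lines, with means of 173 ± 104, 12.7 ± 3.86 and 1.78 ± 2.03 (SD, n = 5).

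The astrocyte list stood at 10.02 to 30.8% of its brain level in the eye-antennal discs, highest in RAL-208, the line in which Obp44a was also highest by this measure. In the wing discs it stood at 1.36 to 23.2%, highest in D. pseudoobscura, where Obp44a was at 0.503%, and at 15.5% in D. simulans, where Obp44a was highest. The summed signal of the 4 genes was 144 to 273 in the brain, 19.1 to 76.2 in the eye-antennal disc and 2.79 to 40.4 in the wing disc. Obp44a was a smaller percentage of its brain level than this list in all 18 disc libraries. The general glial factor repo stood at 15.0 to 42.7% in the eye-antennal discs and 1.12 to 8.16% in the wing discs, and Obp44a was below it in all 18. The D. pseudoobscura brain, lowest for Obp44a, had the lowest summed signal of the neuronal list (705) and of the 4 tested astrocyte genes (144). Single astrocyte genes went the other way there, since wun2, a member of that sum, was highest of all 9 brains (32.7), and alrm, which is not in the sum, was highest of the 5 lines with a value (336, against 92.1 in Canton S). The part of these transcripts in the Obp44a level of that brain was not tested.

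The list of other glial genes was mixed. Of its 16 tested members, 9 were higher and 5 lower in the brain than in the eye-antennal disc, and 11 were higher and 3 lower than in the wing disc, with medians of 1.14 and 1.69. Of all tested genes, 26.8% were higher and 25.8% lower in the brain than in the eye-antennal disc, and 32.0% higher and 28.2% lower than in the wing disc. Of the members that were higher, the largest differences from the eye-antennal disc were those of the aspartate and taurine transporter Eaat2 (3.34), the axon-ensheathing glial protein gene wrapper (3.27), the cortex glial exchanger zyd (2.64) and axo (2.35), and against the wing disc these 4 differed by 4.80, 4.85, 4.59 and 3.61. The septate junction genes Gli (-2.32 and -2.12), Nrx-IV (-0.26 and -0.20) and Cont (-1.70 and -1.71), which epithelia also use and which were named after their values were seen, were lower in the brain than in both discs.

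Obp44a far exceeded the rest of its family in the brain. It made up 67.1 to 98.7% (median 87.5%) of the summed signal of all Obp rows there and led in 9 of 9 lines. The next Obp gene was Obp99a in 8 lines and Obp99b in D. simulans, and Obp44a exceeded the next gene 3.96-fold in D. pseudoobscura to 95.7-fold in D. mojavensis. In the eye-antennal disc its share of the Obp sum was 24.7 to 87.6% (median 48.9%), and it led in 6 lines while Obp99b led in Canton S, D. ananassae and D. virilis. In the wing disc its share was 1.66 to 64.4% (median 17.8%), and it led only in D. simulans, with Obp99b leading in the other 8.

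Of the 44 other Obp rows, 8 passed the filter on low values and 36 did not. Among all 44, 19 never reached a signal of 1, 33 never reached 10 and 6 reached 100 in some library. Obp19b and Obp57c were at 0 wherever they had a value. Among the untested rows, 3 reached 10. Obp56h peaked at 44.2 in the D. pseudoobscura eye-antennal disc, Obp56e at 36.0 in the D. simulans brain and Obp56b at 12.7 in the D. pseudoobscura eye-antennal disc. Obp57a and Obp57b had identical values in 5 lines, so the table did not separate them there. Family members that the table lists under older symbols, such as Pbprp5 (now Obp28a) and Pbprp4 (now Obp84a), were also low, with a highest value of 44.3 for Pbprp5 in the D. pseudoobscura eye-antennal disc.

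Of the 8 other tested Obp genes, 2 differed between brain and eye-antennal disc by limma at an adjusted p under 0.05, 2 between brain and wing disc and 2 between the discs, beside 52.6%, 60.2% and 21.3% of all tested genes. In each comparison they were Obp99a and Obp83g. Between the discs both were higher in the eye-antennal disc, as were 15.0% of all tested genes, whereas 6.24% were higher in the wing disc. By medians, Obp99a followed the same order of tissues as Obp44a, at a lower level. Obp99a exceeded Obp44a only in the D. virilis eye-antennal disc (693 against 670) and the D. pseudoobscura wing disc (26.5 against 24.7). Its signal ran from 187 (D. mojavensis) through a median of 716 to 1494 (Canton S) in the brain, from 25.9 through 201 to 693 in the eye-antennal disc and from 2.70 through 26.5 to 686 in the wing disc. The brain range overlapped that of the eye-antennal disc, and that of the wing disc through D. virilis alone, whose values were 716 in the brain, 693 in the eye-antennal disc and 686 in the wing disc.

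Obp99a was higher in the brain than in the eye-antennal disc by 2.29 (SE 0.51) on the log2 scale (limma adjusted p = 0.000747), and than in the wing disc by 4.26 (SE 0.51, limma adjusted p = 3.67e-07), in 9 of 9 lines each. It was higher in the eye-antennal than in the wing disc by 1.98 (SE 0.51, limma adjusted p = 0.0075), again in 9 of 9 lines. The last call was lost without the replicate block (limma adjusted p = 0.135) and without the 5 lines named above (limma adjusted p = 0.310).

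Obp83g had the opposite order for the brain. Its mean signal was 43.5 ± 49.8 in the eye-antennal disc, 18.2 ± 20.7 in the wing disc and 5.69 ± 5.76 in the brain (SD, n = 9), and the ranges overlapped. It was lower in the brain than in the eye-antennal disc in 9 of 9 lines, with a log2 difference of -2.37 (SE 0.27, limma adjusted p = 2.52e-07). Against the wing disc it was lower in 7 of 9 lines, with a difference of -1.24 (SE 0.27, limma adjusted p = 0.000417). The eye-antennal disc exceeded the wing disc in 8 of 9 lines by 1.13 (SE 0.27, limma adjusted p = 0.00385). Without the replicate block, the calls against the wing disc were lost (limma adjusted p = 0.210 for the brain and 0.584 for the eye-antennal disc), and without the 5 lines the difference between the discs was too (limma adjusted p = 0.140).

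Obp99b, the Obp gene that led most wing discs, passed the threshold in no comparison (limma adjusted p = 0.412, 0.172 and 0.724). Its signal ran from 7.72 to 1143 in the brain, from 16.5 to 1609 in the eye-antennal disc and from 103.3 to 2632 in the wing disc, so the lines differed widely within each tissue. Transcripts of the fat body, a tissue that surrounds the organs dissected, varied as widely. The summed signal of 6 fat body genes ran from 33.4 to 3005 in the brain, from 72.0 to 11435 in the eye-antennal disc and from 476 to 11915 in the wing disc, and none of the 4 tested members passed the threshold in any comparison. Their part in the levels of Obp99b and Obp99a was not tested. Obp99c, Obp56a, Obp56d, Obp83ef and Obp49a also did not pass in any comparison, and their means were at most 72.6 in any tissue. The call for Obp56d between brain and eye-antennal disc depended on the lines used: the difference was -1.28 (limma adjusted p = 0.0821) with all lines, -3.18 (limma adjusted p = 0.00884) without the 5 lines, -1.50 (limma adjusted p = 0.0447) without RAL-208 and -1.61 (limma adjusted p = 0.0389) without D. simulans.

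**Figure D4:**
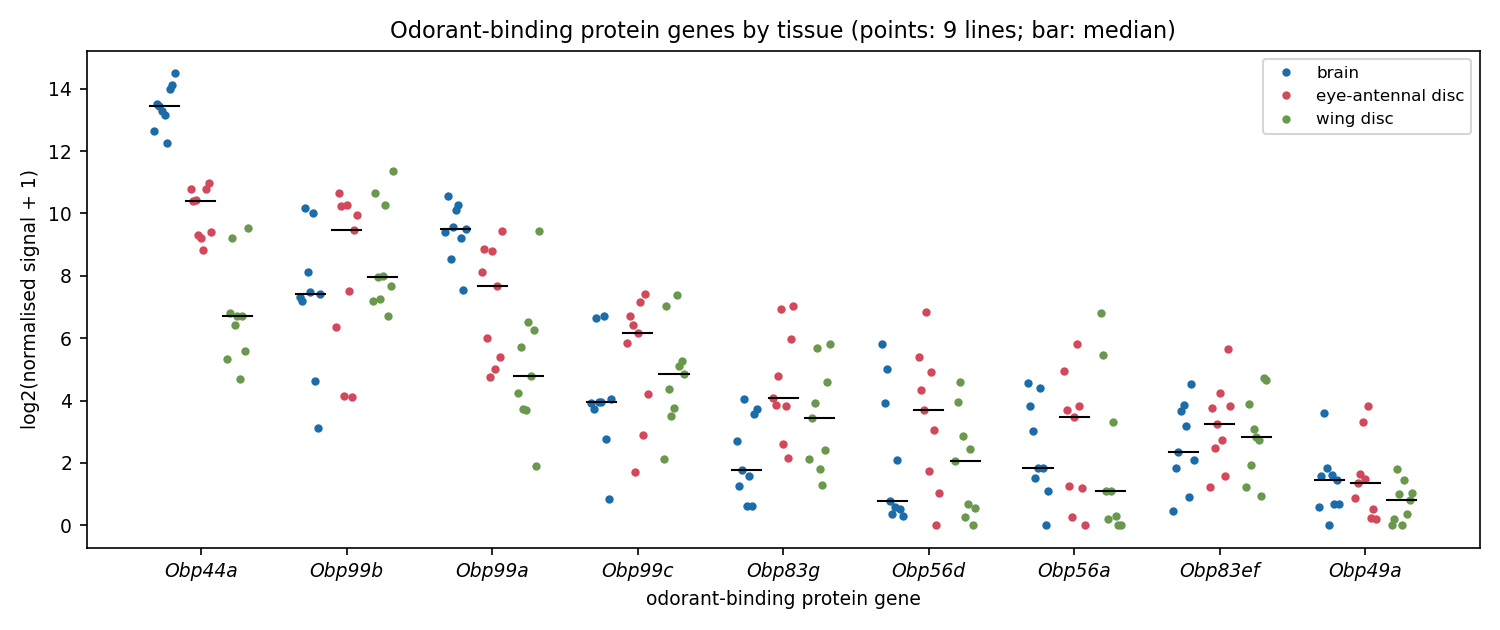
Levels of the 9 genes with a symbol beginning with Obp that passed the filter on low values, as log2(normalised signal + 1), with 1 point per line in each tissue and the median as a bar. Family members under older symbols are not shown. The Obp44a brain values lie above those of every other Obp gene in every tissue, and Obp99b and Obp99a are the next highest genes.

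Because Obp44a protein is known to bind fatty acids, genes for lipid carriage and metabolism were set beside it. Of 15 tested members, 7 were higher and 2 lower in the brain than in the eye-antennal disc, and 9 were higher and 2 lower than in the wing disc, with median log2 differences of 0.23 and 0.38. The shares over all tested genes were 26.8% higher and 25.8% lower, and 32.0% higher and 28.2% lower. The intracellular fatty acid-binding protein gene fabp was the most abundant of the 15 in the mean over brains. Its brain signal ran from 230 in RAL-208 and 464 in Canton S to 6047 in D. virilis and 6242 in D. mojavensis, with a mean of 3421 ± 2253 (SD, n = 9). It was higher in the brain than in the eye-antennal disc by 1.41 (SE 0.14, limma adjusted p = 3.99e-08) and than in the wing disc by 2.31 (SE 0.14, limma adjusted p = 1.8e-11).

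The fatty acid synthase FASN1 (CG3523 in the table) was higher in the brain by 1.29 against the eye-antennal and 2.47 against the wing disc. The glial lipocalin GLaz, an apolipoprotein D relative, was higher by 1.43 and 1.93, and the triglyceride lipase bmm by 0.75 and 1.80. The lipid droplet protein gene Lsd-2 was lower in the brain than in the wing disc, with a log2 difference of -1.10, and mdy, which makes triglycerides, was lower than in both discs, at -0.75 and -0.65. In all lines fabp was below Obp44a in the brain, and in the discs of several lines it was above it, as in D. virilis with 2052 against 670 in the eye-antennal disc.

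Other families of small carrier proteins showed members of both directions. The sterol-binding NPC2-family genes Npc2a and Npc2b were higher in the brain than in both discs, Npc2a with means of 252 ± 75.6, 86.1 ± 22.3 and 36.3 ± 27.3 in brain, eye-antennal and wing disc (SD, n = 9). Another member, Npc2g, was lower in the brain than in the eye-antennal disc, with means of 17.0 ± 22.2 and 54.4 ± 50.9. The chemosensory protein gene Phk-3 was lower in the brain, with means of 39.6 ± 13.9, 145 ± 62.4 and 175 ± 114. Of the 11 tested genes of that list, which also holds the Obp genes under older symbols, 2 were higher and 2 lower in the brain than in the eye-antennal disc, and 5 were higher and 1 lower than in the wing disc, beside the shares of all tested genes just given.

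The genes whose pattern over the 27 libraries was most like that of Obp44a were found by Pearson correlation on the log2(signal + 1) scale. These correlations are a description, since the libraries of a tissue and of a line share their sources. The 10 highest were CG4409 (r = 0.972), CG14591, CG4341 (now Tmtc2), the axon guidance receptor robo3, CG6520 (now insb), PIP5K59B, the synaptic complexin cpx, the blood-brain barrier transporter Mdr65 (r = 0.968), Scgbeta, a sarcoglycan, and the prohormone convertase amon (r = 0.965). Their medians in the brain ran from 34.7 for Scgbeta to 278 for CG4409, against 11145 for Obp44a.

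With the line mean subtracted, the 5 highest were CG12950 (now side-VII, r = 0.995), CG3556, CG4596, CG12605 and amon (r = 0.991). Among 7676 genes, repo held place 65 by the correlation over libraries and place 83 within lines, Eaat2 places 100 and 119, wrapper places 105 and 323, and Eaat1 places 223 and 219. Tested members of the glial lists spread widely, from place 8 (Mdr65) to place 7529 (Gli, r = -0.777) over libraries. The astrocyte list members Gs2, e and wun2 held places 718, 736 and 946 over libraries. Apart from cpx, places of the neuronal list are not given, so glial and neuronal genes were not compared by this measure. The gene fabp had r = 0.525 (place 1337) over libraries and r = 0.946 (place 322) within lines. Of the other Obp genes, Obp99a had r = 0.752 (place 831) over libraries and r = 0.901 (place 700) within lines. Over libraries, the remaining 7 tested genes lay between -0.24 and 0.18.

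**Figure D5:**
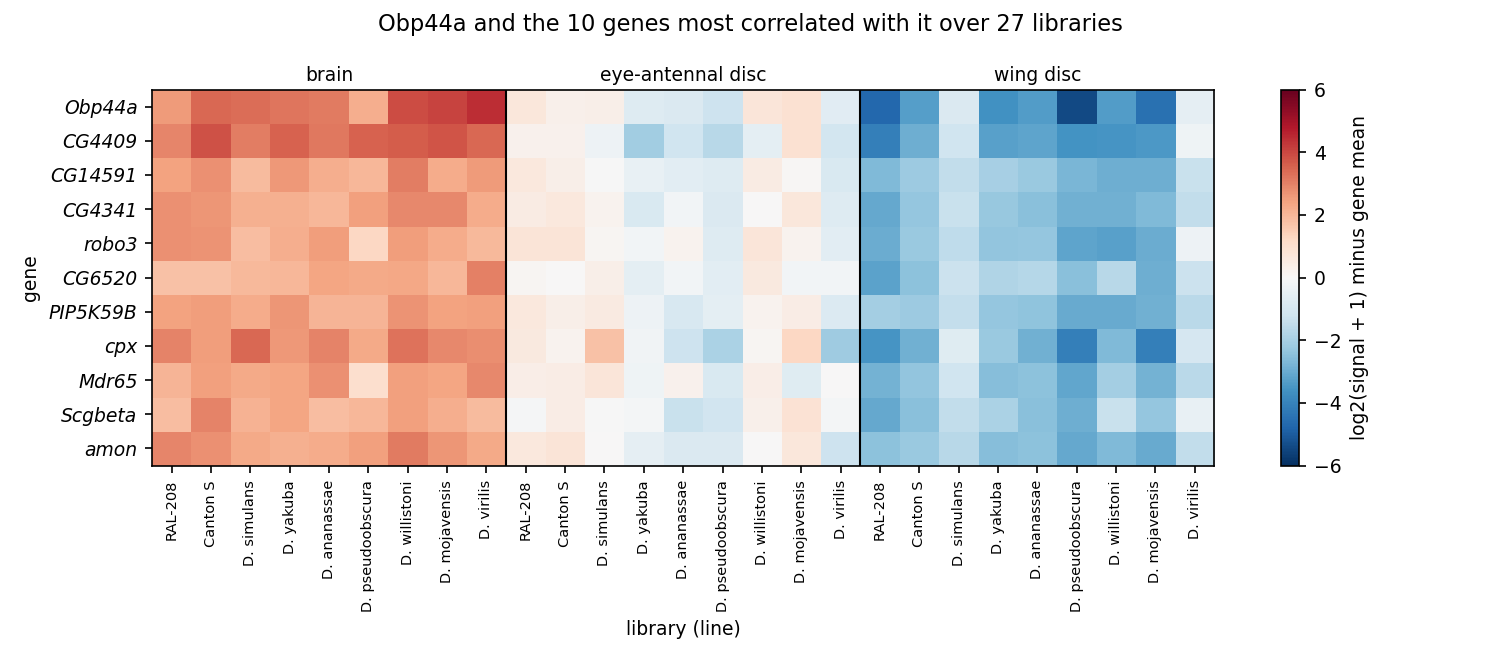
Heat map of log2(normalised signal + 1) minus the gene's mean over 27 libraries, for Obp44a and the 10 genes with the highest Pearson correlation to it; columns are libraries, grouped by tissue and ordered by line. All 11 genes are high in the brain and low in the wing disc, where D. simulans and D. virilis are the least low for Obp44a.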

How the data were processed

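RNA was extracted by the authors with Ambion's RNAqueous micro kit and sequenced from Illumina TruSeq libraries, per the labels' protocols. TopHat2 2.0 and HTSeq are named in the submitters' processing notes. No gene positions are given, since the builds were not given in the sources used here. Deposited were 27 tables with the read count of each gene, under each species' own identifiers, and 1 table of normalised signal under D. melanogaster symbols. Columns headed only D. melanogaster were taken as RAL-208, since those of Canton S are named.

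Count rows were matched to Obp44a by proportional values over the 3 tissues, within 1e-07 on the log scale. The next best row differed by at least 0.0239. Tissues were compared with limma 3.58.1 (R 4.3.3) on log2(signal + 1), with an intensity trend, line as a block and all 27 libraries (16 residual degrees of freedom), for the 7677 genes with a value in every library and at least 1 in 9 or more. P-values were adjusted by Benjamini-Hochberg over all tested genes, with a threshold of 0.05. The fit was tested on simulated data. The line labels tie the 3 tissues of a line together, and after subtracting tissue means, libraries from 1 line correlated at 0.625 to 0.863 over 27 pairs. The separate lines share ancestry. The block removes their differences in level. A p-value thus sets a mean tissue difference against the variation among lines that remains, estimated over all 3 tissues together and moderated over genes.

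Obp44a, its gene lists and the alternatives were chosen with earlier results of these data known. Named were all tested genes whose deposited symbol begins with Obp, untested ones of these reaching 10, and called members of the lists. The 10 genes most correlated with Obp44a and 5 within lines were also named. Alternatives were a pseudocount of 0.1, no filter, no replicate block, libraries set to equal medians, no intensity trend, 5 lines left out, and each line left out in turn.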

Additional observations from a re-analysis of the deposited data

Results flagged for a closer look

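For the signal of each of the 9 tested Obp genes in each tissue, and for the 3 tissue differences of Obp44a, the 9 lines were searched for a library far from the others, by the gap to its nearest neighbour relative to the whole range. Of 30 groups of 9 values, 5 held such a library. Chance flags about 1 in 20 groups where values are normally distributed. The signals were used without a log scale and were often skewed, so their chance rate is not known. No group of Obp44a values was flagged. A pair of high libraries hides itself from this search, so it could not flag the wing discs of D. virilis (741) and D. simulans (592). Obp99a in the D. virilis wing disc was 686, with the other 8 wing discs between 2.70 and 90.7. Obp56d in the D. yakuba eye-antennal disc was 112.8, with the others between 0 and 40.9. Obp56a in the RAL-208 wing disc was 110.7, with the others between 0 and 43.3. Obp83ef in the D. mojavensis eye-antennal disc was 49.2, with the others between 1.35 and 17.9. Obp49a in the D. simulans brain was 11.1, with the others between 0 and 2.56.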

How the results depend on the processing

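All 69 alternative values of the Obp44a levels and differences kept their direction and stayed within 1 SD. For the alternatives that leave out 1 line this was fixed in advance. Leaving out 1 line moves a mean by less than 1 SD whatever the values. Levels cannot be negative, and each mean difference exceeded 1 SD. Only the other alternatives could have failed. With each line left out in turn, the mean ran from 10929 to 13199 in the brain, 1072 to 1267 in the eye-antennal disc and 138 to 228 in the wing disc, and the log2 differences from 3.22 to 3.62 (brain minus eye-antennal disc), 6.42 to 6.96 (brain minus wing disc) and 2.96 to 3.65 (eye-antennal minus wing disc). Between the discs, setting library medians equal moved the calls over all genes from 1154 higher and 479 lower in the eye-antennal disc to 1043 and 773. Without the replicate block, calls over all genes fell from 4039 to 2122 for brain against eye-antennal disc, 4622 to 2665 for brain against wing disc and 1633 to 709 between the discs, and the other Obp genes called were 2, 1 and 0 of 8 in place of 2 in each. Without the 5 lines named in the report, calls between the discs were 753, of them 1 other Obp gene, Obp56a, in place of Obp99a and Obp83g. Without the filter, 4 of 26 other Obp genes were called between the discs. With each line left out, 2 to 4 other Obp genes were called for brain against eye-antennal disc (4 without D. yakuba, where Obp99c and Obp83ef passed) and 2 in both other comparisons. Of the 10 genes most like Obp44a, 2 were shared by Spearman correlation and 3 within lines. The causes of these changes were not tested. Over the alternatives, single Obp differences kept their side of the threshold in 347 cases, passed it in 8 (among them Obp56d between brain and eye-antennal disc, as given in the report) and lost it in 5, and no called one reversed. Limits are 1 library per line and tissue, wing disc counts as low as 68 reads, ortholog lengths that differ between species, and bulk tissue.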
